A study of Mus musculus with 4 samples.

Results

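Open chromatin was described at 9 genes that encode transcription factors of the AP-1, BATF and IRF families, namely Jun, Junb, Jund, Fos, Fosb, Fosl2, Batf, Batf3 and Irf4, in T cells of mouse colorectal tumors and of the adjacent cecum. The 9 genes were taken as a list, out of 21884 genes counted, and all 9 had enough fragments to be described in both tissues. T cells had been sorted from AKP tumors and from tumor-free cecum next to them 4 weeks after transplantation, and their nuclei were profiled with a multiome assay that reads nuclear RNA and open chromatin (ATAC) of the same nucleus. AKP tumors grow from 1 line of mouse intestinal organoids that lack Apc and Trp53, injected into the wall of the cecum, so the cecum samples also come from tumor-bearing hosts. Strain, genotype and age of the hosts, and how many mice gave each library, are not given in the sources used here for this experiment. The cecum library held 7155 labelled cells and the tumor library 8466, in 17 cell type labels that the authors had given from the RNA of the same nuclei.

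AP-1 is a dimer of a Jun protein with a Fos, ATF or BATF protein that binds DNA through a basic leucine zipper. Many Jun and Fos genes are immediate early genes, which a T cell turns on shortly after its receptor is engaged. BATF and BATF3 lack the transactivation domain of the Fos proteins and pair with Jun proteins, and BATF-JUN dimers bind composite sites together with IRF4, a factor that is induced by T cell receptor signals and shapes effector T cells, T helper subsets and effector regulatory T (Treg) cells. An ATAC fragment is a piece of DNA that a transposase cut out of accessible chromatin, so its count near a gene is a measure of accessibility and not of transcription.

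A fragment was counted for a gene if either end lay in the gene span or within 5 kb of it. The count over all cells of a label was divided by that label's fragments and is given as fragments per 1000000 (FPM). With 1 library per tissue there is no replicate: no test was run, the intervals given are exact 95% ones for counting alone, and tissue and library cannot be told apart. A log2 ratio of at least 0.5 in size counted as past the fold, and the share of genes past it was taken over all genes with at least 100 fragments in the groups compared. The labels came from RNA of the same nuclei, in which the members' own transcripts may have had a part, so a difference between labels is not independent of how they were drawn. Among the labels, 16 had at least 50 cells in each library and were ranked. A highest or lowest label was picked by the same counts, and the intervals of its ratios to other labels are not adjusted for that choice. PD1+ CD4 had 14 cells in cecum and was left out of ranks.

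The median labelled cell carried 4374 fragments (cecum) or 5846 (tumor), 66.2% and 64.3% of all fragments belonged to labelled cells, and 84 cell barcodes occurred among the labelled cells of both libraries. The summed level of 6 T cell markers was 4.89 FPM per kb for cecum and 4.6 for tumor cells, against 0.248 and 0.254 for 6 B cell markers, 0.354 and 0.399 for 6 myeloid markers and 0.373 and 0.408 for 10 epithelial markers. Foxp3, which defines Treg cells, had its highest levels in the IL10+ Treg and IL10- Treg labels of both libraries, Gata3 in Th2 and Ccr7 in both CCR7+ labels. Pdcd1, the gene of PD-1, ranked the fifth of 16 in PD1+ CD8 in each library, with 180 FPM in tumor cells against a label median of 146 FPM, and Cd4 ranked the sixth and the fourth in newly activated CD4.

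The gene spans in mm10 were chr4:95049036-95052222 for Jun, chr8:84976909-84978748 for Junb and chr8:70697739-70700616 for Jund, the Jun genes, and chr12:85473890-85477274 for Fos, chr7:19302696-19310118 for Fosb and chr5:32136472-32157840 for Fosl2, the Fos genes. Batf spans chr12:85686720-85709087, Batf3 chr1:191098414-191108943 and Irf4 chr13:30749233-30766981. Per length of window, the Jun genes were the most open of the 9 and Batf3 the least. Junb had 19.6 FPM per kb for cecum and 18.99 for tumor cells, followed by Jund with 15.5 and 14.8 and Jun with 11.9 and 11.1. The Fos genes came next, with 11.0 and 9.56 FPM per kb for Fosl2, 8.60 and 7.94 for Fos and 7.61 and 6.75 for Fosb. Batf had 3.29 and 3.70, Irf4 2.86 and 3.15 and Batf3 1.83 and 2.28. This order was the same in both libraries. The windows of Junb and Jund hold part of Prdx2 and of Iqcn, and 86.6% and 82.4% of their cecum fragments were left once fragments within 1 kb of another gene were taken out.

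The genes also differed in where their fragments lay. The 300 bases around the annotated start, 250 before it and 50 after it, held 49.3% of the cecum window fragments at Jun (95% interval 48.1 to 50.5) and 39.7% at Fos (38.4 to 41.1), compared with 22.1% at Junb, 21.6% at Batf, 17.7% at Fosb, 12.6% at Irf4, 7.92% at Batf3 and 3.02% at Fosl2. The tumor shares were within 2 percentage points of these at each of the 9 genes, for example 47.4% at Jun and 38.9% at Fos. At Jund the annotated start held 0.774% in cecum and 0.826% in the tumor, and the tile of 500 bases with the most fragments lay 1.01 kb downstream of it, so the RefSeq start used here is not where the fragments of these T cells lie. At Fosl2 the fullest tile lay 0.72 kb upstream of the start (chr5:32135501-32136000), with 118 FPM in cecum and 104 FPM in the tumor.

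The start sequences of 4 members are printed because they stand for the start-centred genes (Jun and Fos) and for the pair whose proteins share composite sites (Batf and Irf4). Each is the 250 bases before the annotated start in GRCm38.p6, from RefSeq, 5′ to 3′ on the gene's strand. Capitals mark matches on either strand to a CRE-like site (TGANNTCA), to TGACG, the core that a full CRE also holds, to the TATA box, searched as the letters TATAAA, or to the CCAAT box, searched under the letters of its name.
Jun, chr4:95052223-95052472, minus strand: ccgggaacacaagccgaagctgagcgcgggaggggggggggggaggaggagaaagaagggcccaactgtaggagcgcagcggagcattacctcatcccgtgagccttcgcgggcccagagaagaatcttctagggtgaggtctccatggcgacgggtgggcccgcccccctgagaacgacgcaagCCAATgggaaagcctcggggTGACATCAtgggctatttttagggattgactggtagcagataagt
Fos, chr12:85473640-85473889, plus strand: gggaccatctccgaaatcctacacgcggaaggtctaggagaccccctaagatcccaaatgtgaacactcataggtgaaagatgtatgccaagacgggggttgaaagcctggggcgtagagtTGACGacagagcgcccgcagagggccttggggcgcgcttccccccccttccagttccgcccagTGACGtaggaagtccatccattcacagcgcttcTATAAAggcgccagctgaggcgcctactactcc
Batf, chr12:85686470-85686719, plus strand: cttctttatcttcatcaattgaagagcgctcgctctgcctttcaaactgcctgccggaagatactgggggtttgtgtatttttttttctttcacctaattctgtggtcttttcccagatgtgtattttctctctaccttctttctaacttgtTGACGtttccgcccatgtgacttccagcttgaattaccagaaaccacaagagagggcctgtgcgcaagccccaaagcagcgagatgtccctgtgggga
Irf4, chr13:30748983-30749232, plus strand: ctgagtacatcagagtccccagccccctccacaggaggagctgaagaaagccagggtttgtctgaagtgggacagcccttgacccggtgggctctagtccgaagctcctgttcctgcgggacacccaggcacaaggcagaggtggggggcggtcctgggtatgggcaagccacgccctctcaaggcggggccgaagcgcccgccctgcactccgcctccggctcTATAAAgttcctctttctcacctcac
Jun holds the CRE-like site TGACATCA 45 to 38 bases before its start and a CCAAT box at 65 to 61. Fos holds CRE cores at 129 to 125 and at 66 to 62 and a TATA box at 33 to 28. Batf holds a CRE core at 98 to 94, and Irf4 a TATA box at 26 to 21. Of the members not printed, Junb holds a CRE core and a CCAAT box, Jund the CRE-like site TGAAATCA and Fosb a CRE core. No member had a match to the AP-1 site TGANTCA in this stretch, and Fosl2 and Batf3 had none to any of the 5 motifs. Of 32851 promoters of the same length, 6.75% held the AP-1 site, 11.9% the CRE-like site, 17.8% the CRE core, 12.4% the TATA box and 33.8% the CCAAT box. The GC content was 61.2% at Jun, 58.4% at Fos, 63.6% at Irf4 and 46.4% at Batf, against a median of 52.4% over all promoters. A match describes letters only.

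Batf and Irf4 had a related label pattern, though led by different labels, which Batf3 did not share over the ranked labels. Among these, Batf was most open in IL10+ Treg, at 170 FPM in the cecum (95% interval 159 to 181) and 177 FPM in the tumor (161 to 193). IL10- Treg followed in the cecum with 163 FPM and Th17 in the tumor with 165 FPM, and neither differed from IL10+ Treg beyond the counting interval. The lowest label was Innate-like T#2 with 65.0 FPM in cecum and CD8aa, T cells with the CD8 alpha homodimer, with 72.0 FPM in the tumor. The median label had 103 FPM in cecum and 120 FPM in the tumor, and the log2 ratio of highest to lowest label was 1.38 (1.03 to 1.76) and 1.30 (1.07 to 1.52). PD1+ CD4, which was not ranked, had 203 FPM in its 616 tumor cells, above all 16 ranked labels.

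Irf4 led in Th2 cells, which make type 2 cytokines, with 149 FPM in the cecum (119 to 185) and 153 FPM in the tumor (118 to 194). Th17 in cecum and IL10+ Treg in the tumor came second with 116 FPM and 139 FPM, and in each library the interval of the ratio to Th2 reached 0. Innate-like T#1 was lowest in both, at 34.5 FPM (30.5 to 38.8) and 48.7 FPM (44.9 to 52.8). The range was 4.34-fold in cecum and 3.13-fold in the tumor, or 2.12 and 1.65 on the log2 scale (1.49 in cecum within 1 kb of a gene end), and the median label had 84.9 FPM and 95.9 FPM. Spearman's rho between the cecum and tumor levels over the 16 labels was 0.935 for Irf4, the highest of the 9 genes. Innate-like T#1 was also the label with the highest epithelial marker level in both libraries, 0.510 and 0.541 FPM per kb against 0.373 and 0.408 over all labelled cells, and the part of this in its low Irf4 level was not tested.

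Batf3, the partner of Jun best known from conventional dendritic cells, had the widest range of the 9 and was nearly closed in CCR7+ cells. CCR7+ CD8 had 7.87 FPM in the cecum (10 fragments) and CCR7+ CD4 8.22 FPM in the tumor (6 fragments). The highest label was newly activated CD4 in the cecum, at 67.9 FPM (45.5 to 97.6) from 29 fragments, and Rorgt gdT in the tumor, at 83.3 FPM (71.5 to 96.5) from 177 fragments. The highest label exceeded the lowest 8.63-fold in cecum and 10.1-fold in the tumor, and in cecum the range was 3.34-fold within 1 kb of a gene end and 13.97-fold with the gene span alone. IL10+ Treg, the ranked label where Batf was most open, had only 13.5 FPM and 24.9 FPM at Batf3, against label medians of 40.3 FPM and 38.1 FPM. Tfh-like, with 19.7 FPM and 19.6 FPM, and Mucosal Th1, with 25.0 FPM and 17.0 FPM, were also low. The unranked PD1+ CD4 of the tumor, where Batf was more open than in any ranked label, had 52.4 FPM at Batf3. Innate-like T#1, Cytotoxic gdT and CD8aa, which were low for Batf, were above the median for Batf3 in both libraries, at 51.3 to 64.5 FPM.

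**Figure D1:**
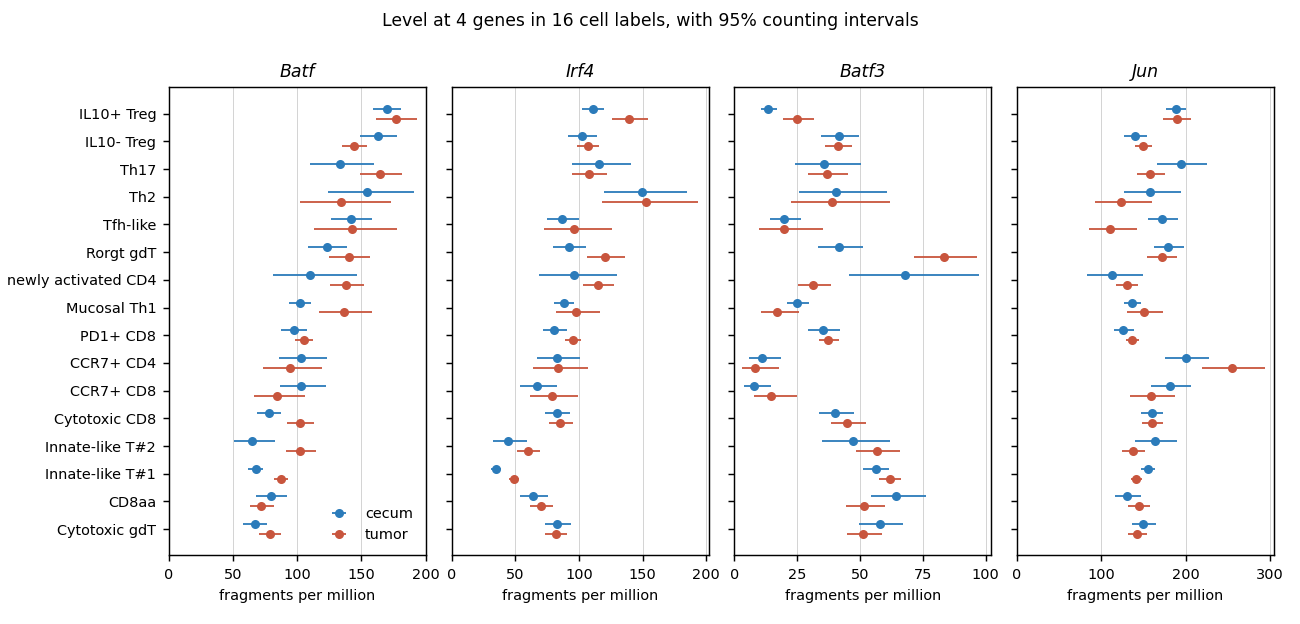
Level in FPM (x axis, starting at 0) at Batf, Irf4, Batf3 and Jun in the 16 ranked labels (y axis, ordered by the mean Batf level of both libraries), with the cecum library in blue and the tumor library in red; bars are exact 95% counting intervals. Irf4 is lowest in Innate-like T#1 and second lowest in Innate-like T#2 in both libraries, and Batf3 is at most 24.9 FPM in both CCR7+ labels and in IL10+ Treg.

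Counted over the whole window, the Jun and Fos genes had narrower ranges, of at most 1.20 on the log2 scale. With the gene span alone this order did not hold, since Jun had 1.57 and Fos 1.29 in the tumor, against 1.27 for Batf, and Fosl2 had 1.47 in cecum, against 1.42. Jun was highest in CCR7+ CD4, cells marked by a lymph node homing receptor, at 200 FPM in the cecum (176 to 227) and 255 FPM in the tumor (219 to 294). In the tumor this was above every other ranked label beyond the counting interval, with IL10+ Treg second at 190 FPM, while in the cecum 6 labels could not be told from it. Its lowest labels were newly activated CD4 with 112 FPM in cecum and Tfh-like with 111 FPM in the tumor. Junb ran from 198 FPM in PD1+ CD8 to 288 FPM in Th2 in the cecum, and from 198 FPM in Cytotoxic gdT to 296 FPM in CCR7+ CD4 in the tumor. Jund, the Jun gene that is least inducible, had the narrowest tumor range, 180 FPM to 234 FPM, a 1.30-fold difference.

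Fos was highest in CD8aa with 149 FPM in cecum and in Th2 with 144 FPM in the tumor, and Innate-like T#1 had 140 FPM and 133 FPM. Its lowest labels were newly activated CD4 with 79.7 FPM and CCR7+ CD4 with 80.8 FPM. Fosb was highest in Th2, at 151 FPM in the cecum, where none of the 15 other labels could be told from it. Tumor Th2 had 185 FPM, from 81 fragments in 58 cells, above every other ranked label beyond the unadjusted counting interval. Fosl2, which encodes the Fos family protein FRA2, was highest in Rorgt gdT with 424 FPM in the cecum (397 to 452) and in Th2 with 401 FPM in the tumor (344 to 465). It was lowest in PD1+ CD8 in both libraries, at 256 FPM (239 to 273) and 245 FPM (235 to 255), with label medians of 333 FPM and 313 FPM.

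**Figure D2:**
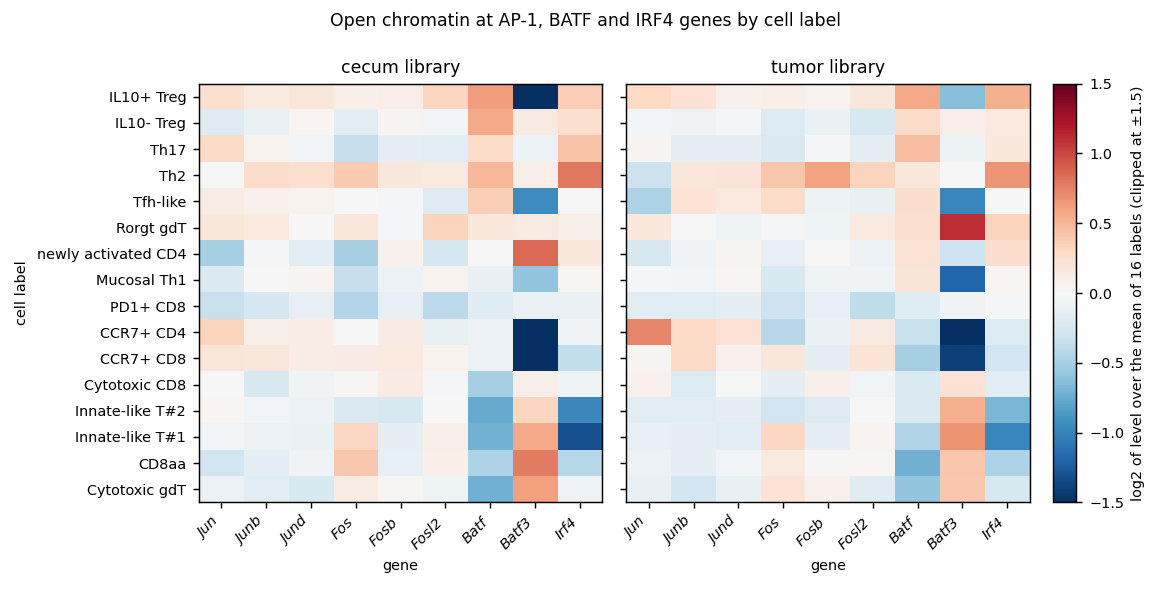
Log2 of the level in each of the 16 ranked labels (rows) over the mean of the labels, for the 9 genes (columns) in the cecum (left) and tumor (right) library, clipped at 1.5; red is above and blue below the mean. Among the darkest cells are Batf3 in both CCR7+ labels and cecum IL10+ Treg and Irf4 in Innate-like T#1, and the columns of Junb and Jund are pale throughout.

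Set beside all genes, the 9 were not unusually label-specific. The median log2 range over labels was 0.83 in cecum and 0.83 in the tumor, against 1.04 and 0.97 for 16361 genes with at least 100 fragments, and 0.80 and 0.76 for 11711 genes with at least 1000. The same label led in both libraries for 4 of the 9, Jun, Fosb, Batf and Irf4, where 26.5% of all genes had the same leader. The median rho between libraries was 0.74, with 0.41 at Fosb as the lowest. These correlations rest on 16 points that share a library and its depth.

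Across the 16 labels of both libraries together, 32 points, the levels of Batf and Irf4 correlated with r = 0.78 on the log2 scale and those of Junb and Jund with r = 0.79. Batf3 ran opposite to Junb (r = -0.61) and Jund (r = -0.68) and showed r = -0.24 with Batf. Fos had no partner above 0.56, the value with Fosl2. The genes elsewhere whose levels were most like Batf were Smco4 (r = 0.92), Galm (0.89) and Nectin1 (0.88), those most like Irf4 were Hlf (0.85), Plk3 (0.84) and Aebp2 (0.83), and those most like Batf3 were Prr5l (0.83), Dkk3 (0.83) and Plekhg3 (0.82). For Junb they were Rgcc (0.80), Jund and Klf7 (0.78). For Jund they were Prdx2 (0.79), Junb and Gnl3 (0.79). Prdx2 lies next to Junb and its window takes in the whole Junb span, so these entries share fragments. The 3 most like Jun, Fos, Fosb and Fosl2 had r between 0.66 and 0.76, led by the nonagouti gene a, Hspa5, Elf1 and Ifrd1.

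Within the loci, single elements carried label patterns that the start site did not. At Batf, the tile 25.5 kb upstream of the start (chr12:85661001-85661500), outside any gene span and 21.4 kb from Jdp2, was most open in PD1+ CD8 in the cecum, with 31.1 FPM, and in Innate-like T#1 in the tumor, with 30.3 FPM. It was lowest in Th17 in both, with 5.74 FPM and 2.99 FPM, and had 9.81 FPM and 6.23 FPM in IL10+ Treg. A tile 26.03 kb downstream of the start (chr12:85712501-85713000) was picked because it differed most between the Treg subsets. There Th17 and IL10+ Treg were above Innate-like T#1, a reversal stated for these labels only. Th17 had 16.1 FPM and 11.1 FPM, Rorgt gdT 11.1 FPM and 12.7 FPM and IL10+ Treg 10.2 FPM and 12.8 FPM, against 0.372 FPM and 1.20 FPM in Innate-like T#1. The tile at the start itself differed less, from 12.3 FPM to 36.9 FPM in cecum and from 20.2 FPM to 40.9 FPM in the tumor. A tile 19.03 kb downstream, inside the gene span (chr12:85705501-85706000), was highest in Th2 in the cecum with 35.2 FPM and in Rorgt gdT in the tumor with 35.3 FPM.

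At Irf4, the fullest distal tile lay 43.0 kb downstream of the start in the span of the neighbour Exoc2 (chr13:30792001-30792500), with 44.8 FPM in Th17 and 39.8 FPM in Rorgt gdT of the cecum, 36.8 FPM in Th17 and 29.6 FPM in Th2 of the tumor, and 5.83 FPM in cecum Innate-like T#1. At Batf3, the tile 4.84 kb downstream of the start (chr1:191103001-191103500), in the gene span, held the most fragments of any tile in the window, 11.4 FPM and 13.5 FPM, and its neighbour at 4.34 kb 10.96 FPM and 13.5 FPM. No fragment fell in either tile in cecum CCR7+ CD8, where the interval reached up to 2.9 FPM, or tumor CCR7+ CD4, where it reached 5.05 FPM. In the tile at 4.34 kb Innate-like T#1 had 19.3 FPM and 21.1 FPM, and the highest cecum label was newly activated CD4 with 25.8 FPM. At Fos, a tile 18.6 kb upstream of the start (chr12:85455001-85455500) held 85.7 FPM in cecum and 76.5 FPM in the tumor, more than the 58.8 FPM and 54.1 FPM of the fullest tile at the gene, and was highest in IL10+ Treg with 106 FPM and 94.9 FPM. At Junb, the tile 7.5 kb upstream (chr8:84986001-84986500), 2.53 kb from Hook2, held 74.8 FPM and 61.4 FPM, against 58.4 FPM and 53.8 FPM at the start.

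**Figure D3:**
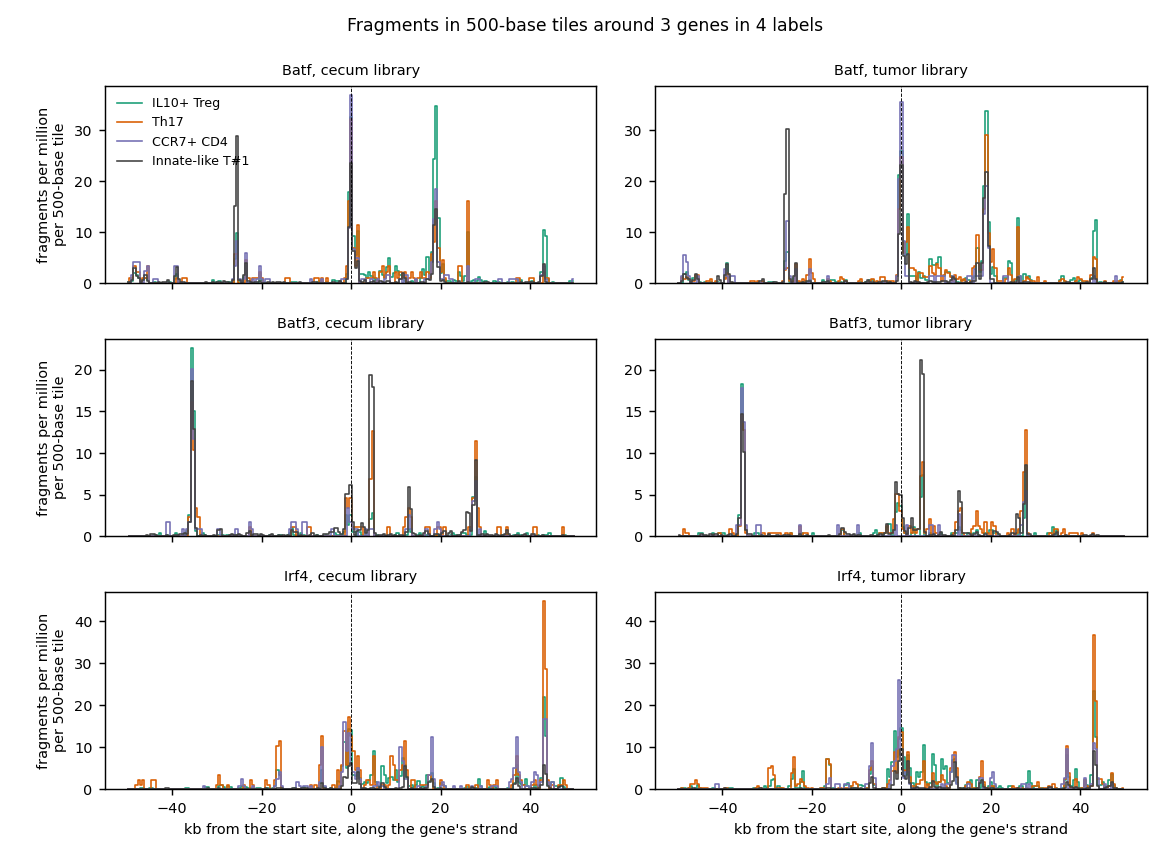
FPM in 500-base tiles (y axis, starting at 0) against distance from the annotated start in kb along the gene's strand (x axis, dashed line at the start) for Batf, Batf3 and Irf4 in the cecum (left) and tumor (right) library, for IL10+ Treg, Th17, CCR7+ CD4 and Innate-like T#1. Among these 4 labels, at Batf the peak 25.5 kb upstream is seen mainly in Innate-like T#1 and the peak 26.03 kb downstream in Th17 and IL10+ Treg, at Batf3 the peak near 4.34 kb is highest in Innate-like T#1, and at Irf4 the peak at 43.0 kb is highest in Th17. Error is not drawn.

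The study compares Treg subsets with and without Il10 expression. Over the whole window, 8 of the 9 genes were more open in IL10+ Treg than in IL10- Treg in both libraries, with Batf3 the exception. This count did not hold within 1 kb of a gene end, with the gene span alone or with fragments near gene ends as the scale, as given below. Of the genes tested in both libraries, 38.3% were higher in IL10+ Treg in both and 29.8% lower in both. The median log2 ratio of the 9 was 0.15 in cecum and 0.29 in the tumor, against 0.02 over all genes tested in each. Jun had 188 FPM in IL10+ Treg and 140 FPM in IL10- Treg of the cecum, a log2 ratio of 0.43 (0.27 to 0.60), and 190 FPM and 150 FPM in the tumor, a ratio of 0.34 (0.18 to 0.50). Fosl2 had 421 FPM and 326 FPM in cecum and 360 FPM and 270 FPM in the tumor, with ratios of 0.37 (0.26 to 0.48) and 0.42 (0.30 to 0.53). For Junb and Fos the intervals also lay above 0 in both libraries, at 0.24 and 0.27 for Junb and 0.24 and 0.29 for Fos. Jund had 0.15 (0.01 to 0.29) in cecum and 0.10 (-0.05 to 0.24) in the tumor. Fosb had 0.06 (-0.11 to 0.23) in cecum and 0.16 (-0.03 to 0.35) in the tumor, so both of its intervals reached 0. Batf and Irf4 were nearly equal between the subsets in the cecum, with ratios of 0.06 and 0.12 whose intervals reached 0, and higher in IL10+ Treg in the tumor, with 0.29 (0.13 to 0.46) and 0.38 (0.20 to 0.57). When only fragments within 1 kb of a gene end were counted, Irf4 was not higher in IL10+ Treg in either library, with -0.09 and -0.0030, and Batf had 0.62 in cecum. With the gene span alone Batf had -0.06 and 0.12, while Irf4 and Fosl2 passed the fold in the tumor with 0.51 and 0.56. As a mean over cells Jun and Fosl2 passed it there, both with 0.56, and without cells above 3 times the library median Jun reached 0.53 in cecum. With the gene span alone Jun was lower than over the whole window, at 0.26 in cecum and 0.24 in the tumor.

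None of these 8 genes reached the fold of 0.5 upward in either library over the whole window, where 2.96% of genes did so in cecum and 2.49% in the tumor. Such shares hold for genes with at least 100 fragments, and with no minimum the share past the fold in either direction went from 9.91% to 29.9% in cecum and from 10.6% to 27.5% in the tumor. Batf3 passed it downward in both. It had 13.5 FPM in IL10+ Treg and 41.7 FPM in IL10- Treg of the cecum, a log2 ratio of -1.63 (-2.06 to -1.21), and 24.9 FPM and 41.3 FPM in the tumor, a ratio of -0.73 (-1.14 to -0.34). The cecum ratio was -0.64 within 1 kb of a gene end and -2.17 with the gene span alone. Downward, 6.95% of genes passed in cecum and 8.15% in the tumor. For each gene the tile that differed most between the subsets was picked by this same ratio. The ratios and intervals of these tiles are shaped by that choice and lend no support. Among tiles with at least 40 fragments, 13 of 16 at Fosl2 were higher in IL10+ Treg in both libraries and 0 lower. At Batf 8 of 14 were higher and 4 lower, at Irf4 7 of 15 and 2, and at Batf3 2 of 5 and 3. The share over the tiles of all genes was not counted. These tiles also overlap the windows counted above, so nothing further is read from their counts. The picked Fosl2 tile 3.22 kb upstream of the start (chr5:32133001-32133500) had 59.2 FPM and 39.7 FPM in the cecum subsets and 43.6 FPM and 26.01 FPM in the tumor subsets. The Batf tile 26.03 kb downstream had log2 ratios of 1.02 in cecum and 1.97 (1.13 to 2.86) in the tumor. The tiles picked in this way at Irf4 and Batf3 were less open in IL10+ Treg. The Irf4 tile 11.02 kb downstream of the start (chr13:30760001-30760500) had 3.15 FPM against 8.33 FPM in the cecum subsets (-1.40, -2.36 to -0.47) and 4.03 FPM against 7.41 FPM in the tumor subsets (-0.88, -1.98 to 0.10). The Batf3 tile at 4.34 kb had 2.10 FPM against 14.3 FPM and 4.77 FPM against 12.6 FPM, ratios of -2.77 (-3.83 to -1.82) and -1.40 (-2.38 to -0.54). IL10+ Treg had 45.3% of its cecum fragments within 1 kb of a gene end and IL10- Treg 43.3%, and in the tumor 43.4% and 42.1%. With those fragments as the scale, each ratio between the subsets is therefore lower in both libraries. The cecum ratios of Fosb and Batf then fall just below 0.

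**Figure D4:**
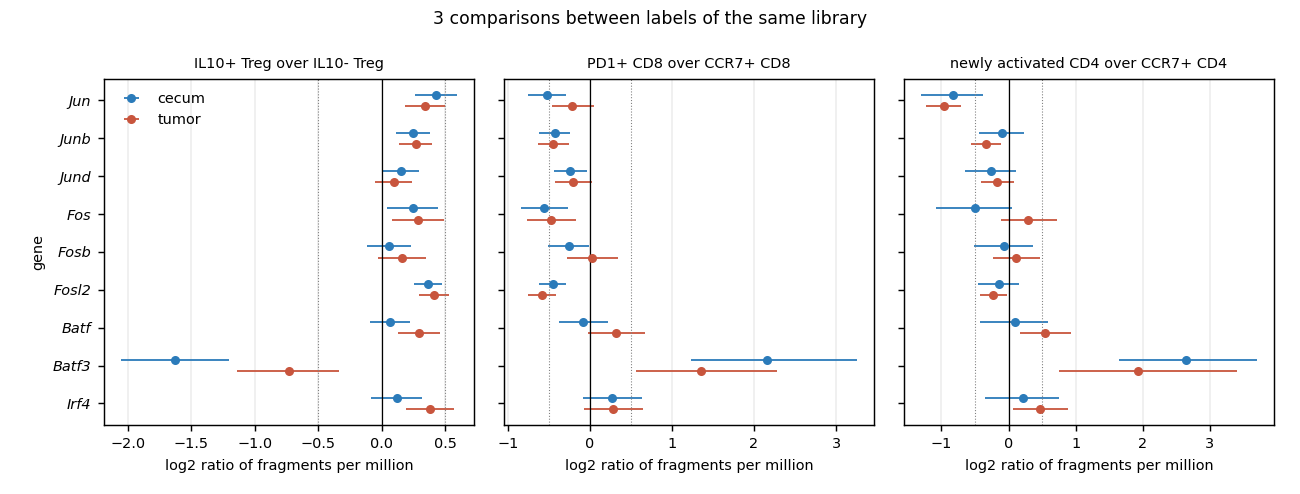
Log2 ratio of FPM (x axis) for the 9 genes (y axis) in IL10+ Treg over IL10- Treg, PD1+ CD8 over CCR7+ CD8 and newly activated CD4 over CCR7+ CD4, in the cecum (blue) and tumor (red) library; bars are exact 95% counting intervals and dotted lines mark the fold of 0.5 in either direction. Batf3 stands apart from the other genes in each comparison, lower in IL10+ Treg and higher in PD1+ CD8 and newly activated CD4.

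The other comparisons set activated against CCR7+ cells. In the cecum the 6 Jun and Fos genes were less open in PD1+ CD8, cells named for a receptor of antigen-experienced T cells, than in CCR7+ CD8. In the tumor only Junb, Fos and Fosl2 were lower beyond the counting interval. Batf3 was more open in both. The median log2 ratio of the 9 was -0.26 in cecum and -0.20 in the tumor, against -0.03 and -0.01 over all genes tested. The share of all genes lower in PD1+ CD8 was not counted, so nothing is read from the number of members that were lower. Batf3 had 35.3 FPM in PD1+ CD8 and 7.87 FPM in CCR7+ CD8 of the cecum, a log2 ratio of 2.16 (1.24 to 3.26), and 37.4 FPM and 14.6 FPM in the tumor, a ratio of 1.35 (0.56 to 2.28), but 0.35 and 0.22 within 1 kb of a gene end, which leaves out the tiles 4.34 and 4.84 kb into the gene. Fosl2 was lower in PD1+ CD8, by a log2 ratio of -0.45 (-0.62 to -0.29) in cecum and -0.59 (-0.76 to -0.42) in the tumor, where it was -0.26 within 1 kb of a gene end. Junb had ratios of -0.43 and -0.45 and Fos -0.56 and -0.47. Jund had -0.24 (-0.44 to -0.03) in cecum and -0.20 (-0.42 to 0.02) in the tumor. Fosb had -0.26 (-0.51 to -0.01) in cecum and 0.02 (-0.28 to 0.34) in the tumor. Jun had -0.52 in cecum and -0.22 (-0.47 to 0.05) in the tumor, where the interval reached 0 and the ratio was 0.04 with the gene span alone. Batf had -0.09 in cecum and 0.31 in the tumor, and Irf4 0.27 and 0.28, with every one of these intervals reaching 0. Within 1 kb of a gene end all 4 were below 0, at -0.49 and -0.15 for Batf and -0.08 and -0.27 for Irf4. With the gene span alone all 4 were above 0, at 0.07 and 0.63 for Batf and 0.51 and 0.49 for Irf4. Past the fold over the whole window were Batf3 upward in both libraries, Jun and Fos downward in cecum and Fosl2 downward in the tumor. Of all genes, 8.42% passed upward and 7.72% downward in the cecum, whereas 11.7% and 6.21% did in the tumor. PD1+ CD8 had the lowest share of fragments near gene ends of the 16 labels in the cecum, 41.2% against 43.3% in CCR7+ CD8. With fragments near gene ends as the scale Jun and Fos did not pass in the cecum, at -0.45 and -0.49. On that scale the cecum intervals of Jund and Fosb reach 0. The myeloid list was also highest in PD1+ CD8, 0.460 and 0.496 FPM per kb from 0.230 and 0.238 in the lowest label, and its part in these ratios was not tested.

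Against CCR7+ CD4, newly activated CD4 cells were more open at Batf3 and less open at Jun in both libraries. Batf3 had 67.9 FPM against 10.9 FPM in CCR7+ CD4 of the cecum and 31.4 FPM against 8.22 FPM in the tumor, with log2 ratios of 2.64 (1.65 to 3.71) and 1.93 (0.76 to 3.41). The cecum ratio was 1.48 within 1 kb of a gene end and 3.8 with the gene span alone, whereas the tumor ratio was 2.82 within 1 kb of a gene end. Jun was lower, at 112 FPM against 200 FPM in cecum and 130 FPM against 255 FPM in the tumor, with ratios of -0.83 (-1.31 to -0.38) and -0.97 (-1.23 to -0.71). Junb and Fosl2 were lower beyond the counting interval in the tumor only, at -0.34 (-0.56 to -0.11) and -0.23 (-0.43 to -0.02). In cecum Junb had -0.10 and Fosl2 -0.15. With the gene span alone Fosl2 had -0.75 in cecum and -0.63 in the tumor, and Junb -0.66 and -0.20. Within 1 kb of a gene end Fosl2 had 0.29 in cecum and -0.25 in the tumor, and Junb -0.32 and -0.45. For Jund and Fosb the intervals reached 0 in both libraries. Batf was higher in newly activated CD4 in the tumor, at 138 FPM against 94.5 FPM (0.55, 0.18 to 0.94), but had a ratio of -0.10 there when only fragments within 1 kb of a gene end were counted. In the cecum its ratio was 0.09 (-0.42 to 0.59), and -0.77 within 1 kb of a gene end and 0.73 without cells above 3 times the library median. Irf4 had a ratio of 0.46 (0.07 to 0.88) in the tumor and 0.21 (-0.35 to 0.75) in the cecum, where it was -0.39 within 1 kb of a gene end. With the gene span alone it was past the fold in both, at 0.82 in the tumor and 0.88 in the cecum. Fos had -0.50 in cecum and 0.29 in the tumor, both with intervals that reached 0. With the gene span alone Fos had -0.38 in cecum and passed the fold in the tumor with 0.55. Past the fold over the whole window were Batf3 and Batf upward and Jun downward in the tumor, and Batf3 upward and Jun downward in the cecum, where Batf3 had too few fragments for the minimum. Of all genes, 7.11% passed upward and 11.2% downward in the cecum, whereas 9.63% and 6.57% did in the tumor. Newly activated CD4 had 77 cells in the cecum. CCR7+ CD4 and CCR7+ CD8 had the highest medians of fragments per cell of the 16 labels in the cecum, 8588 and 7061, whereas in the tumor CCR7+ CD4 had the lowest, 3898.5, and CCR7+ CD8 had 4633. With cells above 3 times the library median removed the Irf4 ratio of PD1+ CD8 over CCR7+ CD8 was 0.82 in cecum and 0.70 in the tumor. The part of depth in these ratios was not tested.

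Between tissues, Batf, Batf3 and Irf4 were slightly more open in the tumor over all labelled cells and the 6 Jun and Fos genes slightly less, though with the cecum label shares applied to both libraries Jun, Junb and Jund had log2 ratios of -0.03, 0.03 and -0.01. Over all labelled cells Batf had 107 FPM in cecum and 120 FPM in the tumor, a log2 ratio of 0.17 (0.12 to 0.22). Irf4 had 79.5 FPM and 87.3 FPM (0.14, 0.07 to 0.20), and Batf3 37.6 FPM and 46.8 FPM (0.31, 0.23 to 0.40). The difference was largest in the other direction at Fosl2, with 345 FPM in cecum and 300 FPM in the tumor (-0.20, -0.24 to -0.17), and at Fosb, with 133 FPM and 118 FPM (-0.17, -0.22 to -0.12). Fos had -0.12, Jun -0.10, Jund -0.06 and Junb -0.04, and Junb turned to 0.01 with fragments near gene ends as the scale. No member passed the fold, which 1.78% of all genes did upward and 0.141% downward.

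Within labels, which removes differences in label shares, Irf4 was higher in the tumor in 14 of 16 labels, with a median log2 ratio of 0.15, and Fosb was lower in 14 of 16, with a median of -0.17. These were the only members that kept 1 direction in at least 12 of 16 labels, as 9.75% of all genes did upward and 9.3% downward. Counts of 1 of 9 members upward and 1 of 9 downward are near these shares, so nothing is read from them. Of the alternatives with 16 labels, 5 gave 2 or 3 lower members in place of 1. Within 1 kb of a gene end no member, Irf4 included, was higher in that many labels. Irf4 was highest above its cecum level in Innate-like T#1, with 34.5 FPM in cecum and 48.7 FPM in the tumor (0.50, 0.29 to 0.71), and also in Rorgt gdT, IL10+ Treg and PD1+ CD8, whose intervals lay above 0. Batf was higher in 11 labels and lower in 5, with a median of 0.15. Its ratio was 0.66 (0.28 to 1.054) in Innate-like T#2, from 65.0 FPM to 102 FPM, 0.42 in Mucosal Th1, 0.40 in Cytotoxic CD8 and 0.37 in Innate-like T#1, but -0.17 (-0.34 to -0.01) in IL10- Treg. Batf3 was split, higher in 8 labels and lower in 8, and once the cecum label shares were applied to both libraries its ratio over all cells went from 0.31 to 0.11. It was 2 times as open in tumor Rorgt gdT, 83.3 FPM against 41.6 FPM (1.0, 0.63 to 1.38), and less open in newly activated CD4, 31.4 FPM against 67.9 FPM (-1.12, -1.73 to -0.46). Fosl2 was lower in 11 labels, with intervals below 0 in 6, among them both Treg subsets at -0.23 and -0.27.

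**Figure D5:**
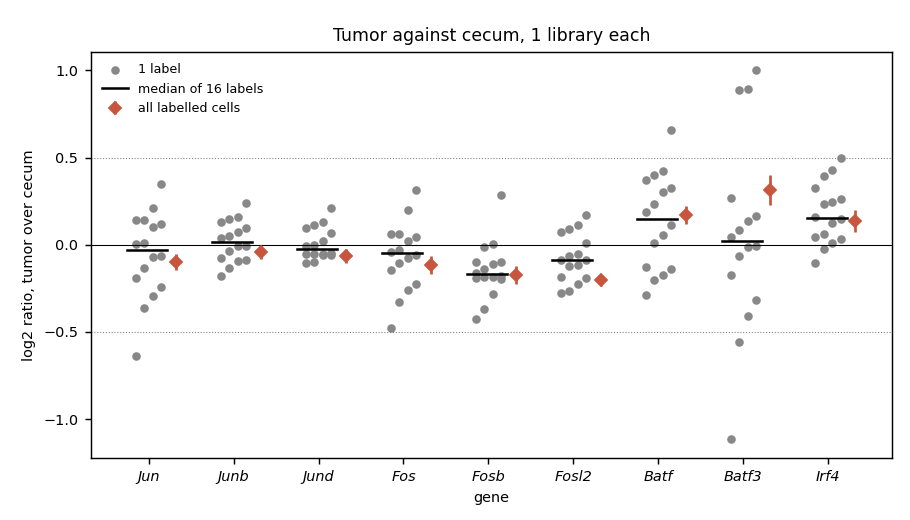
Log2 ratio of tumor over cecum level (y axis) for each gene (x axis); grey points are the 16 ranked labels, black lines their median, and red diamonds all labelled cells with the exact 95% counting interval; dotted lines mark the fold of 0.5. The diamonds of Batf, Batf3 and Irf4 lie above 0 and those of the 6 Jun and Fos genes below (Junb at 0.01 with fragments near gene ends as the scale and 0.03 at cecum label shares), the median over labels of Junb is 0.02, and Batf3 has the widest spread between labels, from -1.12 to 1.0.

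Fragments too short to span the DNA wound around 1 nucleosome made up 51.4% to 54.1% of the fragments at Jun, Junb and Jund in cecum and 55.5% to 56.5% in the tumor, against a median over all genes of 42.1% and 44.96%. Fosl2 had 50.4% and 52.9%. Fos, Fosb, Batf, Batf3 and Irf4 were nearer the median, between 40.2% and 45.9% in cecum and between 45.1% and 49.7% in the tumor. The 4 genes with the most fragments per kb, Junb, Jund, Jun and Fosl2, were also the 4 with the largest shares of short ones, and fragment length was not used to choose the genes.

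Lists of related genes were counted in the same way, as the number past the fold upward and downward. Between 2.49% and 11.7% of all genes passed in either direction of these 3 comparisons, and nothing is read from counts of 0 to 2 in lists of 8 to 12 genes. Of 11 other AP-1 partners and relatives, 0 passed upward and 1 downward among the 10 tested in the Treg comparison of each library. This was Jdp2, a repressor of AP-1 that lies between Fos and Batf, with -0.76 and -0.70, and the list median was 0.14 in cecum and 0.09 in the tumor. In PD1+ CD8 over CCR7+ CD8, 1 passed upward and 2 downward in cecum and 0 and 1 in the tumor, with the small Maf gene Maff downward in both (-0.59 and -0.52). In newly activated over CCR7+ CD4 the counts were 0 and 2, then 1 and 1, with Bach2, a repressor that competes for AP-1 sites, downward in both (-0.66 and -0.61).

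Of 8 other IRF genes, 0 passed in the Treg comparison of either library. In PD1+ CD8 1 passed downward in the cecum only, and in newly activated CD4 0 passed upward and 2 downward in the cecum, where 5 were tested, and 2 and 2 in the tumor. Irf5 had 1.19 and 0.72 there and Irf3, a factor of the antiviral response, -0.73 and -0.51. Irf5 had too few fragments in the cecum to be tested. Among 12 genes that signal into AP-1 and IRF4, 0 passed in cecum and 1 upward in the tumor in the Treg comparison, 1 downward in cecum and 1 upward in the tumor in PD1+ CD8, and 1 and 3 upward in newly activated CD4. Nfatc2, the calcium-regulated factor that pairs with AP-1, passed in both libraries in the last of these, with 0.51 and 1.04. Among 12 other immediate early genes, 0 passed in the Treg comparison, 2 and 1 downward in PD1+ CD8, and 1 downward in cecum and 1 upward in the tumor in newly activated CD4. Klf2, a factor of resting and circulating cells, was lower in PD1+ CD8 with -0.94 and -0.73.

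Of 10 partner factors in T cell programs, 1 passed upward and 3 downward in the Treg comparison of the cecum and 2 and 2 in the tumor. Less open in IL10+ Treg were Ikzf2, which encodes Helios, with -1.21 and -0.89, and Tox with -0.90 and -0.75. In PD1+ CD8 1 passed in each direction in cecum and 1 upward in the tumor, and Tbx21, the gene of T-bet, had 1.36 and 0.82. In newly activated CD4 2 of 7 tested passed upward in cecum, where 7.11% of all genes did, and 4 of 10 in the tumor, where 9.63% did, and Tbx21 (2.19 and 1.70), Ikzf2 (0.73 and 1.43) and Maf (0.60 and 0.67) were higher in both, 1 of these 3 with too few cecum fragments to be tested. Between tissues none of the genes in these 5 lists passed the fold over all labelled cells, and the list medians lay between -0.06 and -0.02. These genes, too, may have had a part in the RNA that set the labels.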

How the data were processed

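Nuclei of sorted T cells were profiled by the authors with a 10x multiome assay, 1 library from the cecum and 1 from the tumor. Per the file headers and the submitters' processing notes, reads were aligned to mm10 and fragments called with Cell Ranger ARC 2.0.0. In the deposited fragment files each line is 1 unique fragment with its barcode and the count of read pairs behind it, 4.29 and 3.11 read pairs per fragment on average for cecum and tumor. Cell labels were taken from the deposited annotation, which the authors made by clustering the RNA of the nuclei. The sources used here do not give how doublets were treated. The RNA counts were not analysed here. An allele of the organoid line and the values of 1 listed gene are not reported here.

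From these files the counts of unique fragments with an end in a gene span plus 5 kb on each side were made per label and library on chromosomes 1 to 19, X and Y, each fragment once per gene, and divided by the label's total. Library totals of labelled cells were 43980981 and 62118519 fragments. Gene spans are RefSeq on GRCm38.p6, the assembly behind mm10. Levels have exact Poisson and ratios exact conditional intervals at 95%, shares exact Clopper-Pearson intervals, and a count of 0 was set to a floor of 3 counts in ratios. Labels with at least 50 cells in both libraries were ranked, genes with at least 100 fragments over the groups compared were used as background, and a log2 ratio of 0.5 was the fold. With 1 library per tissue no test was possible, and intervals cover counting error only. The counter was tested on simulated data. Tiles of 500 bases were counted within 50 kb.

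All 9 members are named. Other pathway genes were named if past the fold in the same direction in both libraries, at most 3 per list and direction. Genes most like a member were the 3 with the highest Pearson r of log2(FPM + 1), among genes with a mean of at least 20 FPM and a separate window. Named tiles were the fullest in the window, the 2 fullest more than 2 kb from any gene end, and the one that differed most between the Treg subsets. A few of the tile values given for further labels were chosen after their values were seen. The members and lists were chosen with earlier results of these data known. Alternatives were the gene span alone, 10 kb flanks, ends within 1 kb of a gene end, every fragment end counted, scaling by fragments near gene ends, cells with at least 1000 fragments, no cells above 3 times the library median, the mean over cells, other minimums, no fragments near other genes and a length limit of 100 bases. The tools were numba 0.67.0 and numpy 2.4.6 for counting, scipy 1.17.1 for intervals, and pandas 2.3.3 with matplotlib 3.10.9 for tables and plots, under Python 3.11.15.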

Additional observations from a re-analysis of the deposited data

Results flagged for a closer look

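In 3 genes the tumor over cecum ratio had opposite directions in different labels, with unadjusted counting intervals that excluded 0 on both sides. Batf had a log2 ratio of 0.66 in Innate-like T#2 and -0.17 in IL10- Treg. Batf3 had 1.0 in Rorgt gdT and -1.12 in newly activated CD4, the latter from 29 cecum and 94 tumor fragments. Jun had 0.35 in CCR7+ CD4 and -0.64 in Tfh-like. The pairs are the labels with the highest and the lowest ratio among those intervals, each label comes from 1 library per tissue, and the difference between labels was not tested.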

How the results depend on the processing

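Of the values that summarise a comparison, 176 kept their size under the alternatives and 26 moved. The number of members lower in the tumor in most labels, 1 in the main count, was 2 with cells of at least 1000 fragments, 3 without cells above 3 times the median, 2 within 1 kb of gene ends, 2 with 10 kb flanks, 2 with scaling by fragments near gene ends and 3 with labels of at least 200 cells, an alternative chosen after seeing the data that asks for 6 of 8 labels in place of 12 of 16 and so is not on the same footing. The number higher in most labels, 1 in the main count, was 0 within 1 kb of gene ends, where Irf4 dropped out, 2 as a mean over cells and 2 in 6 of 8 labels of at least 200 cells. Members past the fold in the Treg comparison, 1 in each library in the main count, were in the cecum 2 without high-fragment cells, 2 within 1 kb of gene ends and 2 as a mean over cells, and in the tumor 3 with the gene span alone and 3 as a mean over cells. In newly activated CD4, where the main counts were 2 (cecum) and 3 (tumor), they were in the cecum 5 without high-fragment cells, 5 with the span and 4 within 1 kb of gene ends, and in the tumor 6 with the span. In PD1+ CD8 of the cecum 1 passed in place of 3 with scaling by fragments near gene ends. With the span alone the median label range of the tumor was 1.27 and the median rho between libraries 0.62, and within 1 kb of gene ends rho was 0.56. With scaling by fragments near gene ends the median tumor over cecum ratio was -0.0093 over all cells and 0.034 within labels. With a limit of 100 bases the median share of short fragments was 35.1% and 37.6%. Of the values for single genes 735 kept their size, 74 moved and 1 past the fold of 0.5 turned sign: Batf in newly activated over CCR7+ CD4 of the tumor was -0.10 within 1 kb of gene ends. In all, 32 of 664 log2 ratios of single genes had the opposite sign, 7 of them with a size of at least 0.2 as reported, such as Irf4 in PD1+ CD8 of the tumor, at -0.27 within 1 kb of gene ends. The share of all genes past the fold in either direction depended on the minimum of 100 fragments, since with no minimum it was 27.5% to 41.0% in the label comparisons and 10.1% between tissues, against 9.91% to 18.3% and 1.92%, and with 200 fragments it was 7.06% in the Treg comparison of the tumor and 1.27% between tissues. The cause of these changes was not tested.

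No paired analysis was possible because each tissue has 1 library. Few cells limit the ratios of Th2, with 90 cecum and 58 tumor cells, and of newly activated CD4, with 77 cecum cells.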
